A study of Mus musculus with 4 samples.

Results

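Around the mouse gene Pax5, CTCF peaks were listed for B cells and plasmablasts over 850 kb of chromosome 4. The peaks described here are those of either deposited list with a midpoint from 44.2 to 45.05 Mb (build mm9). They number 48 of 67467 listed peaks, 26 of 36381 in B cells and 22 of 31086 in plasmablasts. Peaks of the 2 lists that had at least 1 bp in common were counted as a shared site. The 48 peaks then make up 30 sites: 18 shared, 8 in the B cell list alone and 4 in the plasmablast list alone.

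Pax5 encodes a paired box transcription factor that commits lymphoid progenitors to the B cell lineage and keeps B cell identity in mature B cells. It is known to be repressed as activated B cells turn into antibody-secreting cells, in which Blimp-1, the product of Prdm1, takes part. CTCF is a zinc finger protein that binds DNA at a long recognition sequence and, with cohesin, anchors chromatin loops and insulates neighbouring domains. A CTCF peak in a gene therefore marks a possible loop anchor or boundary and is not a measure of transcription.

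CTCF-bound and input DNA were sequenced from spleen cells of C57BL/6 mice aged 6 weeks, with 1 CTCF and 1 input library for each of the cell types. The B cells were the CD43- fraction of spleens, separated with magnetic beads. The plasmablasts were CD138+ cells sorted by flow cytometry from spleens taken 3 days after a retro-orbital injection of 50 µg LPS, the bacterial lipopolysaccharide that drives B cells to antibody secretion. How many mice were pooled is not given in the sources used here, and the identity of the cells could not be checked against markers, since no expression was measured. The B cell libraries were run on a Genome Analyzer II and the plasmablast libraries on a HiSeq instrument, so instrument and cell type cannot be told apart. Neither cell type had a replicate CTCF library, and no difference below was tested. The members were chosen by the peak lists themselves, so their counts are a description.

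The score of a peak is the authors' own value and has no stated unit. Its median was 62.1 in the B cell list and 19.4 in the plasmablast list. Scores were therefore compared only within a list, as percentiles: the percentage of peaks of the same list with a lower score, with ties at their mean rank. The B cell peaks were all 305 bp wide, and the plasmablast peaks of the region were all 179 bp wide. Since sequencing depth is not known, an unlisted site may lie below what that library could show.

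Most CTCF sites around Pax5 were listed in both cell types, and the shares were near those of the whole lists. In B cells 18 of 26 peaks were shared (69.2%, exact 95% binomial interval 48.2 to 85.7%), and in plasmablasts 18 of 22 (81.8%, 59.7 to 94.8%). The intervals cover counting error only. The 8 B cell only peaks compare with a background of 32.1% B cell only peaks over the list, and the 4 plasmablast only peaks with a background of 20.5%. At 17 of the 18 shared sites the midpoints of the peaks lay within 50 bp of each other, with a median offset of 19 bp, against 17 bp over all 24702 shared sites.

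**Figure D1:**
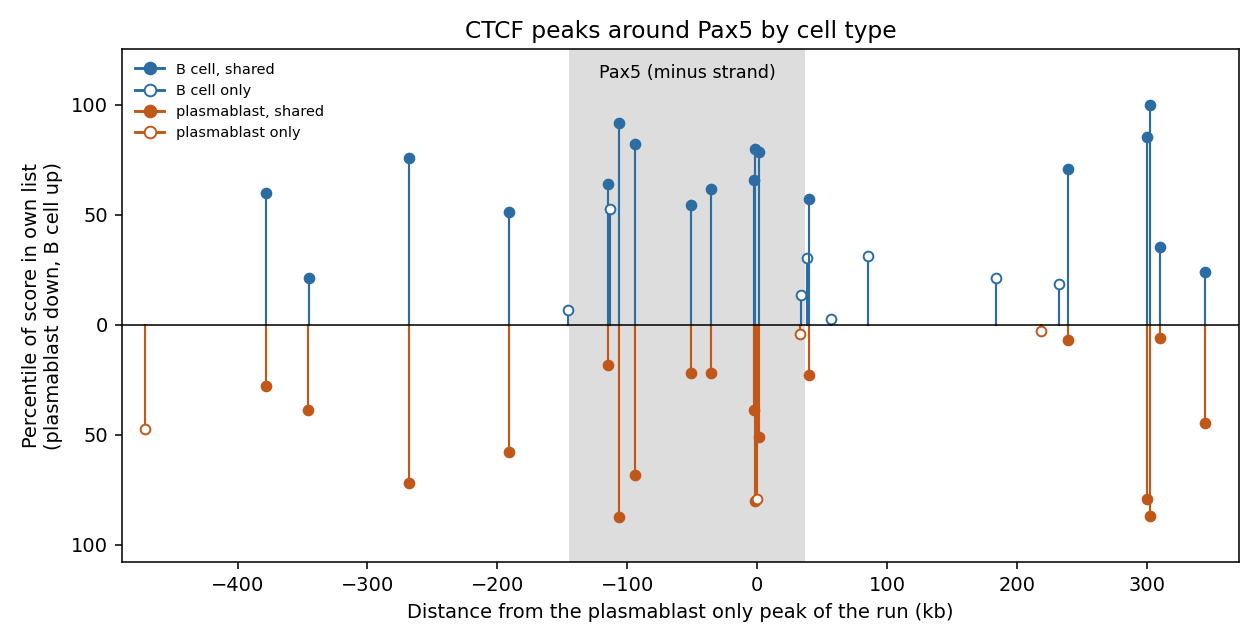
Percentile of each CTCF peak in its own list (vertical axis, B cells upward and plasmablasts downward) against distance in kb from the centre of the plasmablast only peak inside Pax5. Filled points are shared, open points are listed in 1 cell type only, and the grey band is the gene; 18 of the 30 sites are shared, and the open points are mostly low.

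Pax5 itself was dense in CTCF peaks in both cell types. Its bounds were taken as about 44.54 to 44.72 Mb on the minus strand, a span of 180 kb. This span held 10 peaks in each list, or 55.6 per Mb. Chromosome 4 as a whole had 15.7 B cell and 13.2 plasmablast peaks per Mb. In each list 8 of the 10 peaks in the gene were shared. The neighbouring flanks were sparser. The flank beyond the 3' end of Pax5, at lower coordinates, held 5 peaks of each list (14.7 per Mb), and the flank upstream of its start held 11 B cell peaks (33.3 per Mb) and 7 plasmablast peaks (21.2 per Mb). The bounds are approximate: widened by 5 kb at each end, the gene would hold 13 B cell and 11 plasmablast peaks.

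The strongest site inside the gene lay towards its 3' end and ranked high in both cell types. Its B cell peak at chr4:44577464-44577768 had a score of 226.0 (percentile 91.6), and its plasmablast peak at chr4:44577541-44577719 a score of 50.9 (percentile 87.2), the highest plasmablast score of the 850 kb. Further into the gene (12.7 kb between midpoints in either list), a second strong site had a B cell peak at chr4:44590193-44590497 with a score of 174.1 (percentile 81.8). The plasmablast peak there, at chr4:44590252-44590430, scored 31.9 (percentile 68.3). Both sites thus stood in the upper part of either list, and both were lower in rank in plasmablasts, as were 66.1% of all shared sites.

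Next to the first of these lay a pair of closely spaced B cell peaks with a single plasmablast counterpart. The outer B cell peak, chr4:44569422-44569726, scored 99.1 (percentile 63.8) and was shared with the plasmablast peak chr4:44569490-44569668, which scored 8.0 (percentile 18.3). The inner B cell peak, chr4:44570683-44570987, scored 67.6 (percentile 52.6) and had no plasmablast partner. The nearest plasmablast midpoint was 1256 bp away, at the shared neighbour. This was the only one of the 8 B cell only peaks above the median score of its list. Over the whole list, 5.88% of the B cell peaks above the median were B cell only, against 1 of 16 here.

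In the middle of the gene a further pair of shared sites ranked in the middle of the B cell list and low in the plasmablast list. The B cell peak at chr4:44633131-44633435 scored 71.3 (percentile 54.2), and the one at chr4:44648530-44648834 scored 91.7 (percentile 61.6). Their plasmablast peaks, chr4:44633227-44633405 and chr4:44648633-44648811, both scored 8.9 (percentile 22.0). The widest interval without a peak inside the gene, 42.9 kb in B cells and 43.0 kb in plasmablasts, lay between the site at percentile 81.8 in B cells and the first of this pair.

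A close run of CTCF peaks lay nearer the start of Pax5 than its 3' end, and it held 1 peak more in plasmablasts than in B cells. Over 4.49 kb, from 44681157 to 44685642, plasmablasts had 4 peaks and B cells had 3. All 3 B cell peaks were shared. The run is named in the rule that chose the region, so its presence is a description. With gaps of at most 2 kb between midpoints, the plasmablast list held 9 runs of at least 4 peaks and the B cell list 3. Of these, 2 plasmablast runs and no B cell run were on chromosome 4.

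The first site of the run had a B cell peak at chr4:44681082-44681386 with a score of 105.6 (percentile 65.7). Its plasmablast peak at chr4:44681157-44681335 scored 14.1 (percentile 38.6). At the second, the B cell peak chr4:44682391-44682695 scored 164.9 (percentile 79.9) and the plasmablast peak chr4:44682479-44682657 scored 42.7 (percentile 80.2). This second site was the only one of the 8 shared sites in the gene that did not rank lower in plasmablasts, by a margin of 0.31 percentile points. The last site of the run had a B cell peak at chr4:44685401-44685705 with a score of 158.4 (percentile 78.4), and its plasmablast peak chr4:44685464-44685642 scored 19.9 (percentile 50.8). The midpoints at this last site coincided to the base.

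Between the second and the last of these sites, plasmablasts had a peak that the B cell list lacked. It lay at chr4:44683904-44684082 and scored 41.5, at percentile 79.0 of the plasmablast list, close to its strong neighbour 1425 bp away. The nearest B cell midpoint was 1450 bp away, and 3010 bp without a listed peak separated the B cell midpoints on either side. Inside the gene, B cell midpoints were 1309 bp apart at the first and second sites of the run and 1261 bp apart at the pair on the 3' side. Why the B cell list lacks a peak here was not tested. Among the 6384 plasmablast only peaks of the genome, 347 scored as high or higher.

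**Figure D2:**
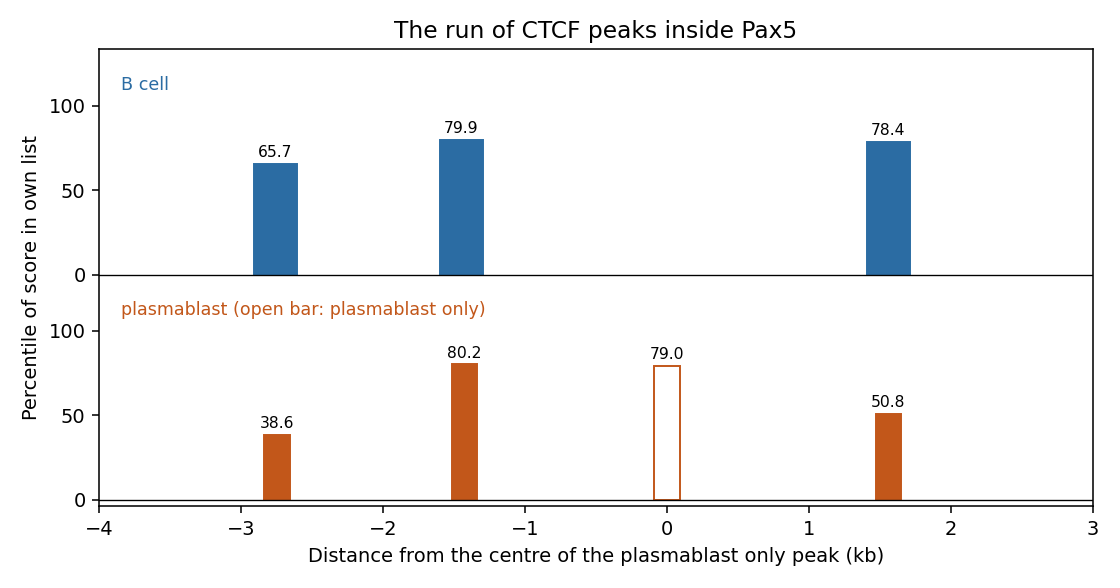
The run of CTCF peaks inside Pax5, with bar widths to scale and bar heights giving the percentile of each score in its own list (B cells above, plasmablasts below) against distance in kb from the centre of the plasmablast only peak. The open bar at percentile 79.0 has no B cell peak opposite it, while the 3 filled plasmablast bars each face a B cell peak.

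Both unshared peaks that scored above the median of their list were thus inside Pax5, the B cell only peak in its 3' part and the plasmablast only peak in the run. The nearest shared sites of the other list were 1256 and 1450 bp away. Of the 9 plasmablast peaks of the region above their median, 1 was plasmablast only, against 10.2% of all such peaks in the list. A single peak of either kind is a count of 1 and cannot be set apart from that background.

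Near the start of the gene the lists held weak peaks that adjoined without touching. The B cell peak chr4:44717432-44717736 scored 20.4 (percentile 13.6), and the plasmablast peak chr4:44717251-44717429 scored 5.0 (percentile 4.05). They were separated by 2 bp, with midpoints 244 bp apart, so the overlap rule counted them as unshared in both lists. Under a rule of midpoints within 500 bp they formed a 19th shared site. Just beyond, the B cell only peak chr4:44721920-44722224 scored 32.4 (percentile 30.2). Next to it was a shared site, with a B cell peak at chr4:44724029-44724333 of score 79.7 (percentile 57.3) and a plasmablast peak at chr4:44724086-44724264 of score 9.1 (percentile 22.7). Since the bounds of the gene are approximate, it was not determined which of these peaks, if any, covers a Pax5 promoter.

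The promoter of the RefSeq Pax5 transcript is shown because these peaks lie nearest to the start of the gene. It is the 250 bases upstream of the start at chr4:44710695-44710944 on the minus strand of GRCm38.p6. That build is not the build of the peaks, so its coordinates cannot be set against theirs.
Pax5 promoter: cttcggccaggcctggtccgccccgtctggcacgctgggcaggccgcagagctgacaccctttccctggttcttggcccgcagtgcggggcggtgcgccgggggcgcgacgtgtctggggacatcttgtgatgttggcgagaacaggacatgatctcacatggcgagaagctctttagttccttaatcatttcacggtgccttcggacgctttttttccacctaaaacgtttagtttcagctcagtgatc
It was searched on both strands for CCCTC, the letters from which CTCF takes its name, and for AGNNGGC, a stretch of the CTCF recognition sequence. Neither string contains the other. No match to either was found, so no base is in capitals, and this says only that these letters are not in this window. Of 32851 RefSeq mouse promoter windows of the same length, 60.5% held the first string and 52.5% the second.

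Upstream of the start, a wide stretch beyond the first shared site had no listed CTCF peak in plasmablasts. From the shared site at 44724086 to the next listed plasmablast peak there were 178 kb between midpoints, wider than 91.5% of the gaps between neighbouring plasmablast peaks. B cells had 3 peaks in that interval, all of them B cell only and weak. They began at 44740474, 44769597 and 44868114, with scores of 13.9, 33.3 and 25.0 (percentiles 2.59, 31.1 and 21.1). A weak plasmablast only peak at chr4:44902287-44902465 (score 4.6, percentile 2.98) and a weak B cell only peak at chr4:44916125-44916429 (score 23.2, percentile 18.4) followed. Of the 8 B cell only peaks of the region, 5 lay in this upstream flank, which held 11 B cell peaks. The other 6 were shared (54.5%, exact binomial interval 23.4 to 83.3%), against 67.9% over the whole list. With 11 peaks the interval is wide, and this difference was not tested. All 5 were under the median score of the list, and over the list only 9.10% of B cell only peaks were above it. In the order of protein-coding genes given by RefSeq (GRCm38.p6), Zcchc7, Grhpr, Zbtb5, Polr1e and Fbxo10 follow Pax5 on this side. Which of them the peaks lie in was not determined.

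Among the 18 shared sites, the largest fall in rank from B cells to plasmablasts was at a site in this flank. Its B cell peak, chr4:44922959-44923263, scored 124.1 (percentile 70.5), whereas its plasmablast peak, chr4:44923024-44923202, scored 5.7 (percentile 6.90). The midpoints were 2 bp apart. A fall of more than 50 percentile points was seen at this 1 of the 18 shared sites and at 2.7% of all shared sites.

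Further upstream (60.7 kb between midpoints in B cells) lay the highest scoring pair of shared sites, 2.62 kb apart in B cells. The first had a B cell peak at chr4:44983694-44983998 with a score of 189.9 (percentile 85.0) and a plasmablast peak at chr4:44983775-44983953 with a score of 41.7 (percentile 79.2). The second had a B cell peak at chr4:44986312-44986616 with a score of 349.2, at percentile 99.6 the strongest of the region. Its plasmablast peak at chr4:44986400-44986578 scored 50.7 (percentile 87.0), second to the 50.9 inside the gene. These sites were strong in both lists and lay outside the gene. Farther on, the shared site at chr4:44994315-44994619 was weaker in both cell types (percentiles 35.2 and 6.12), and the one at chr4:45028517-45028821 ranked higher in plasmablasts (percentile 44.8) than in B cells (23.7).

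Beyond the 3' end of Pax5 the sites were widely spaced. Shared sites began at 44305531, 44338576, 44415529 and 44492685 in the B cell list, with percentiles of 60.0, 21.1, 75.6 and 51.3. In the plasmablast list the same sites had percentiles of 27.9, 39.0, 71.9 and 57.7. The site at 44415529 was the strongest of them, with scores of 145.4 in B cells and 34.9 in plasmablasts. Ranks were thus lower in plasmablasts at 2 of the 4 sites and higher at the other 2. The site at 44338576 was the loosest match of the region, with 23 bp of overlap and midpoints 219 bp apart. Its call is lost under a 50% reciprocal overlap. Unshared peaks on this side were a plasmablast only peak at chr4:44212949-44213127 (score 18.2, percentile 47.5) and a B cell only peak at chr4:44538295-44538599 (score 16.7, percentile 6.77).

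By percentile in the whole lists, shared sites mostly ranked lower in plasmablasts, here and genome-wide. In the whole lists the median percentile of shared peaks was 65.4 in B cells and 56.1 in plasmablasts. The percentile was lower in plasmablasts at 14 of the 18 shared sites, against a background of 66.1% of all shared sites. The median difference, plasmablast minus B cell, was -20.35 points, against -7.16 points over all shared sites (quartiles -21.3 and 4.30). Inside the gene it was lower at 7 of 8 sites, with a median of -27.4 points and a range from -45.5 to 0.31. Upstream of the start it was lower at 5 of 6 sites, with a median of -20.8, and beyond the 3' end at 2 of 4 sites, with a median of 1.29. When percentiles were taken among shared peaks alone, 13 of the 18 sites were lower in plasmablasts, against a background of 51.3% under that ranking, and the median difference was -13.6, against -0.45 for all shared sites.

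**Figure D3:**
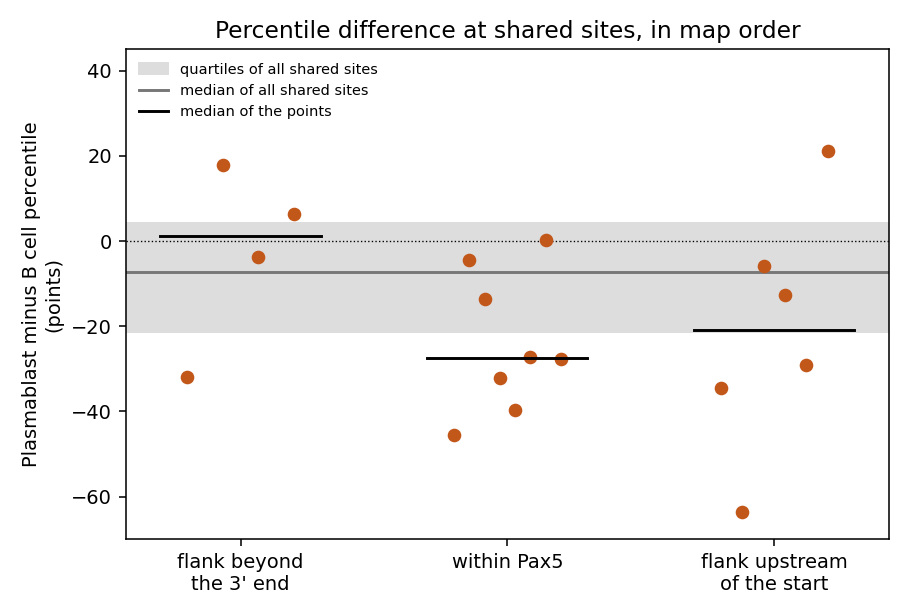
Difference in percentile at each shared site, plasmablast minus B cell (vertical axis, points), by position relative to Pax5, with points in map order within each group and a bar at their median. The grey band and line give the quartiles and the median of all 24702 shared sites. Below the band lie 5 of the 8 sites inside the gene and, by definition of the quartiles, 6176 of all shared sites.

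The differences were also set against sites of like strength in B cells. For each decile of the B cell list, the plasmablast percentiles of all shared sites in that decile gave a median and quartiles. By definition, the quartiles and median split all shared sites of a decile into parts of equal size. Some sites of every decile therefore lie below its lower quartile. Of the 18 sites, 12 lay below the median of their decile, 6 lay below its lower quartile and 2 above its upper quartile. Whether these counts differ from that even split was not tested. Inside the gene 7 of 8 sites were below the median of their decile and 3 were below the lower quartile. Those 3 were the sites at 44569422, 44633131 and 44648530, with plasmablast percentiles of 18.3, 22.0 and 22.0, where the medians for their deciles were 53.5, 43.7 and 53.5. The second site of the run, at 44682391, lay above the upper quartile (80.2 against 77.9). Its B cell percentile of 79.9 is at the edge of its decile, and in the next decile the upper quartile was 87.7.

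**Figure D4:**
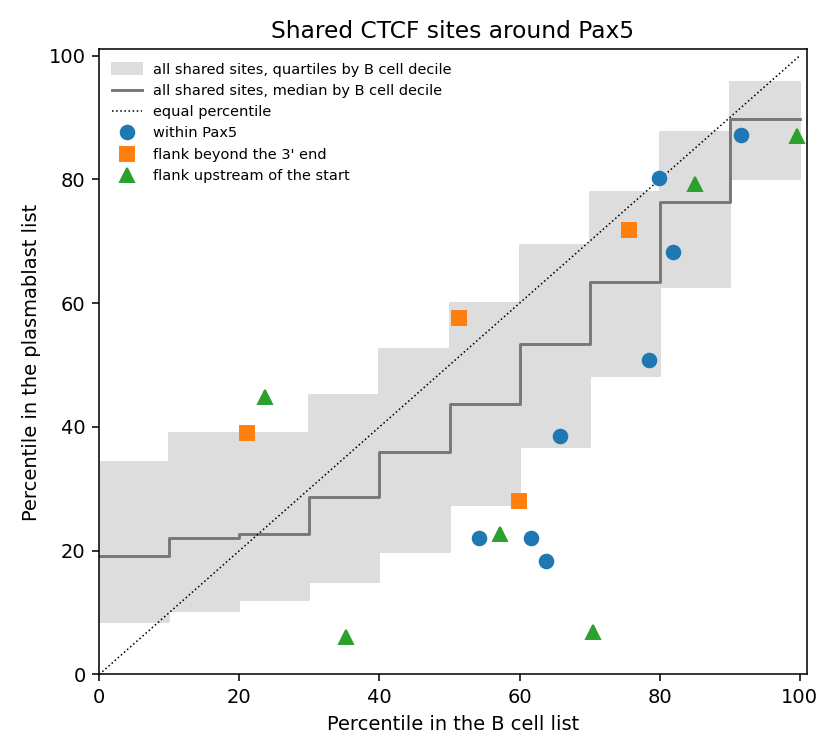
Percentile in the plasmablast list against percentile in the B cell list for the 18 shared sites, by position relative to Pax5. The grey steps give the quartiles and median of all shared sites in each B cell decile, and the dotted line marks equal percentiles. Of the 18 sites, 6 lie below the grey steps and 2 above. By definition, equal shares of all shared sites lie below and above the steps.

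Ranks within the region kept much of their order between the lists. Over the 18 shared sites the Spearman rank correlation of the percentiles was 0.64, against 0.70 over all shared sites. All points come from the same pair of libraries and are not replicates. Whether depth has a part in the lower plasmablast ranks was not tested.

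At the bounds of the region, the nearest peaks just outside on the lower side formed a shared site at 44186104 (percentile 51.3 in B cells and 70.5 in plasmablasts). On the upper side a B cell only peak at 45051793 (percentile 38.1) lay 1.94 kb outside. The nearest plasmablast peak outside the upper bound began at 45110434 and was shared (percentile 98.6). Just inside, the outermost members were at percentiles 60.0 and 23.7 in B cells and 47.5 and 44.8 in plasmablasts.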

How the data were processed

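The deposited data used were 2 peak lists, 1 per CTCF library, with chromosome, start, end, name, score and strand. The authors used Bowtie, HOMER and build mm9, per the submitters' processing notes. For versions, calling thresholds and any use of input, nothing was given in the sources used. The score in the deposited lists has no stated unit and was used only for ranks within a list. Starts were taken as BED starts and raised by 1. Sharing, percentiles, spacing and runs were computed in Python 3.11.15 with numpy 2.4.6, pandas 2.3.3 and scipy 1.17.1, and plotted with matplotlib 3.10.9. The overlap and run steps were tested on simulated data. The rule for peaks given in full took those inside the gene, the 5 highest scoring shared sites and unshared peaks above their list's median. Peaks near the gene's start and in the flanks were added after their values were seen. The members and lists were chosen with earlier results of these data known. Inputs were not analysed here. Alternatives changed the overlap, the region, the gap, the ranking and the gene bounds. Sequences under the peaks are not shown, since no mm9 genome was used here.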

Additional observations from a re-analysis of the deposited data

How the results depend on the processing

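Of 25 alternatives, 20 stayed within the binomial interval, 1.5 times the count or a set margin of 5 percentile points, and 5 moved. The intervals were wide, 48.2 to 85.7% for B cells and 59.7 to 94.8% for plasmablasts. Staying within them is therefore a weak check. With the lower-scoring peaks of each list left out (at or under its median), the shared percentage of B cell peaks was 93.8% (15 of 16). Among all B cell peaks above the median, 5.88% were B cell only, so this share was near that of the whole list. With gaps of at most 1 kb the plasmablast run broke up, and each of its peaks stood alone. Ranked among shared peaks only, the median percentile of the 18 shared members was 49.2 for the B cell list and 35.2 for the plasmablast list. Ranked in the whole lists, these shared members had medians of 64.8 and 41.9, and all members had 55.7 and 41.9. Among shared peaks only, the median difference at shared sites was -13.6. Under that ranking the difference moved by more than 5 points at 13 of 18 sites, by up to 17.1 points, and 1 site changed sign. The gene-bound alternatives were chosen after seeing the data. No paired analysis was possible because each cell type had 1 CTCF library, so none could be left out either. Depth is unknown.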
